A study of Homo sapiens with 4 samples.

Results

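Ferroptosis is a form of cell death that is driven by iron-dependent peroxidation of membrane lipids, so the genes that stop lipid peroxides and the genes that set the free iron of a cell are described here together. The group held 10 genes: the lipid peroxide reductase GPX4, the cystine importer genes SLC7A11 and SLC3A2, the lipid enzyme ACSL4, the iron importer TFRC, the ferritin genes FTH1 and FTL, the iron exporter SLC40A1, the iron sensor IREB2 and the ferritin receptor NCOA4. They were chosen by name, and each symbol matched 1 of the 44591 genes listed in the data and 1 of its 19233 protein-coding genes. RNA sequencing was done on total RNA of untreated HaCaT cells, an immortalised line of human skin keratinocytes, in 4 replicates of 1 condition. There was no comparison group. The cells carried no added gene, knockdown or irradiation and were kept, per the labels, at 37 °C with 5% CO2 in DMEM with 12% fetal bovine serum, while the methods of the study give a lower percentage of serum. HaCaT is an established line in culture, without the layers and the other cells of skin. The study's text calls the replicates biological, while the labels do not say whether they came from separate cultures, so that p-values measure only the spread between these libraries. The levels of other genes served the study to ask which member of a gene family was the most abundant in keratinocytes. Here the same question, how much of each gene these cells held, was put to the genes of ferroptosis and iron.

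The total count was 73082279 in replicate 1 and between 17056035 and 19745170 in replicates 2 to 4. Protein-coding genes took 76.1% of the counts in replicate 1 and 95.3% to 96.4% in the others, so replicate 1 stood apart before any gene was read. Several values, and the calls that it changed, are also given without it. Levels are in TPM, the count per gene length scaled to 1000000 over the protein-coding genes of a library. They are levels of RNA and do not give the amount of protein. All 8 keratinocyte markers were detected in the mean, with a summed level between 11981 and 17363 TPM. None of 3 endothelial markers had a mean above 1 TPM, with summed levels of 0.859 to 2.36 TPM. PECAM1 was at 0 counts in every library, while VWF had 507 counts (2.36 TPM) in replicate 1 and CDH5 reached 1.49 TPM in replicate 4. Of the red cell globin genes, HBA1 and HBA2 were at 0 counts in every library, and HBB had 6 counts in replicate 1 and 0 in the others. Of the other markers, 2 of 5 fibroblast genes, 2 of 5 leukocyte genes and 1 of 4 melanocyte genes passed 1 TPM, with summed levels of 3.93 to 9.70, 11.0 to 52.5 and 1.36 to 3.52 TPM.

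Cells import cystine through a membrane exchanger built from SLC7A11 and SLC3A2, reduce it to cysteine and use it to make glutathione. GPX4 is a selenoprotein that spends glutathione to reduce lipid peroxides, whereas ACSL4 loads membranes with the polyunsaturated fatty acids that are easily peroxidised. Iron bound to transferrin enters through the receptor TFRC, surplus iron is stored in ferritin shells of the heavy chain FTH1 and the light chain FTL, NCOA4 carries ferritin to the lysosome for breakdown, and SLC40A1 (ferroportin) exports iron. When iron is low, IRP2, the protein of IREB2, and its relative IRP1, the protein of ACO1, bind iron-responsive elements in mRNAs: in a 5′ UTR they hold back translation, and in the 3′ UTR of TFRC they protect the mRNA from decay.

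The elements that link the iron genes are printed first, since they are the shared letters of 4 of the 10 genes. The letters sought are those known from iron genes, so matches among genes chosen by name for iron are no independent support. All 83129 protein-coding transcripts of GENCODE release 29 on GRCh38 were searched on the sense strand for a C bulge, a stem of 5 base pairs (G with T allowed) and a loop of 6 bases, CAGTGN, that is the letters CNNNNNCAGTGN followed by the paired stem bases. A match in a UTR was found in 168 of 19669 genes (0.854%). Among them were FTH1, FTL, SLC40A1 and TFRC, and of 77 other genes of iron handling and ferroptosis only ALAS2 and TF. The capitals mark the loop within 29 bases, 5′ to 3′ on the mRNA strand.
FTH1-201, 5′ UTR, chr11:61967574-61967602 (minus strand): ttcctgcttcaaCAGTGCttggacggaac
FTL-201, 5′ UTR, chr19:48965335-48965363 (plus strand): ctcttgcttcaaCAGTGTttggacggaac
SLC40A1-201, 5′ UTR, chr2:189580661-189580689 (minus strand): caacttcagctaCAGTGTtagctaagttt
TFRC-201, 3′ UTR, chr3:196050979-196051007 (minus strand): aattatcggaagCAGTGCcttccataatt
TFRC-201, 3′ UTR, chr3:196050575-196050603 (minus strand): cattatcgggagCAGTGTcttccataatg
TFRC-201, 3′ UTR, chr3:196050510-196050538 (minus strand): ctgtatcggagaCAGTGAtctccatatgt
TFRC-201, 3′ UTR, chr3:196050463-196050491 (minus strand): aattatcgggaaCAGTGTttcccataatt
The elements of FTH1 and FTL differed at 3 of 29 bases, and at 1 of the 17 bases of bulge, stem and loop. Those of FTH1 and SLC40A1 differed at 16 of 29 bases although both lie in a 5′ UTR. The 4 matches in TFRC differed from each other at 4 to 11 bases. A match is a description of letters and no measure of binding, and the other 6 genes held no match to these letters in a protein-coding transcript. An element with another loop or an unpaired stem base would not be found by this search.

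GPX4 carries another signature of its function. Its catalytic residue is selenocysteine, which is written with a codon that otherwise ends translation. The codon is shown in capitals within 27 bases of the coding sequence of GPX4-201 on GRCh38, where it is codon 73 of 197.
GPX4-201, coding sequence, chr19:1105391-1105417 (plus strand): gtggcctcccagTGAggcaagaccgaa
The mRNA of this selenoprotein was abundant in all 4 libraries, as given next.

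Of the 10 genes, 9 were detected, that is, had a mean above 1 TPM, beside 63.3% of the 19233 protein-coding genes. The same 9 of 10 were detected with limits of 0.1 and 5 TPM and without any 1 of the 4 replicates. With any count above 0 as the limit, all 10 were detected. The share of all protein-coding genes was not computed for these other limits or with a replicate left out. By mean level the order was FTH1, FTL, SLC3A2, GPX4, TFRC, NCOA4, IREB2, ACSL4, SLC7A11 and SLC40A1, from 8974 TPM down to at most 3 counts in 3 libraries. In these bulk samples fewer cells that express a gene and less RNA per cell cannot be told apart. The median coefficient of variation over replicates was 38.7% for the 9 detected genes and 37.8% for all 12165 detected protein-coding genes.

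**Figure D1:**
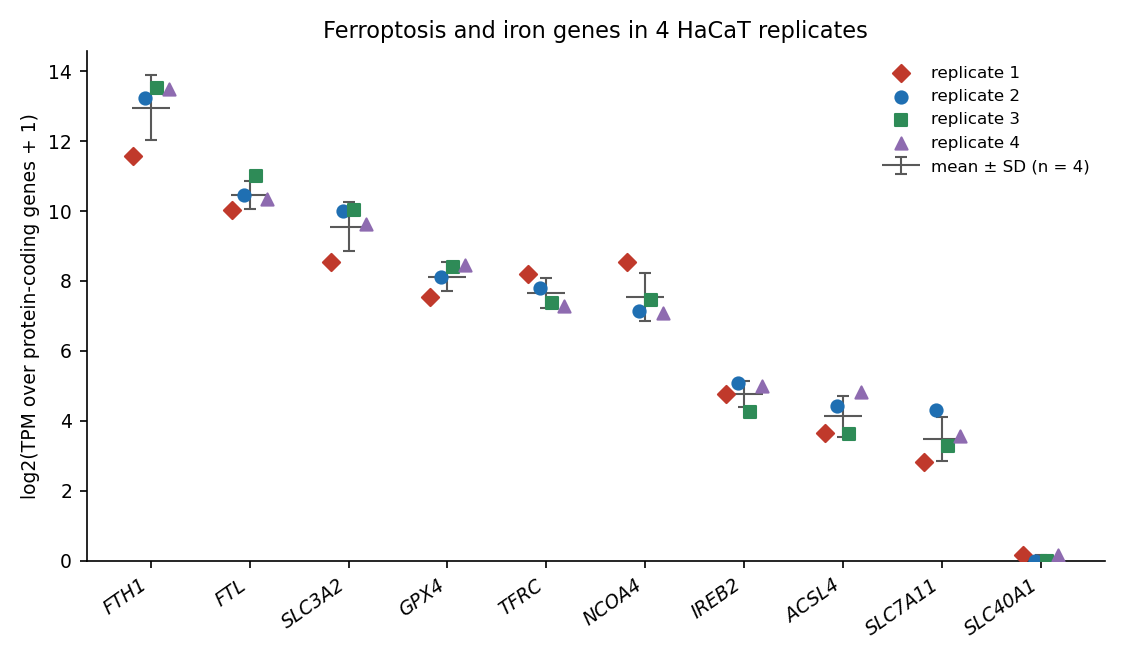
Level of each gene as log2(TPM + 1) over protein-coding genes, 1 point per replicate, with the mean ± SD over 4 replicates. FTH1 is the highest and SLC40A1 the lowest in every replicate, and replicate 1 (diamonds) is the lowest for FTH1, FTL, SLC3A2, GPX4 and SLC7A11 and the highest for TFRC and NCOA4; with TPM over all genes of the library replicate 1 is no longer above the others for TFRC and NCOA4.

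GPX4 (chromosome 19, 1103925 to 1106788, plus strand, on hg19, the build given for all gene positions here) reached 184, 276, 340 and 350 TPM in replicates 1 to 4. The mean was 287 ± 76.4 TPM (SD, n = 4), higher than 96.0% of the detected protein-coding genes. Replicates 3 and 4 were close to each other, and replicate 1 was the lowest of the 4. Without replicate 1 the mean was 322 ± 39.8 TPM (SD, n = 3).

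SLC7A11 (chromosome 4, 139085248 to 139163503, minus strand) encodes the transport chain of the cystine importer. It measured 6.03, 18.9, 8.68 and 10.9 TPM in the 4 replicates, with a mean of 11.1 ± 5.55 TPM (SD, n = 4), and rested on 753 to 1414 counts per library. This was the lowest of the 9 detected genes in every replicate, above 29% of detected genes in the mean, and the highest replicate held 3.14 times the lowest. SLC7A11-AS1, an antisense RNA over part of the gene, held 0 to 25 counts, at most 3.32% of the SLC7A11 count. Whether the counting used the strand is not given in the sources used here, so reads of the overlap cannot be assigned with certainty.

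SLC3A2 (chromosome 11, 62623484 to 62656355, plus strand) encodes the chain that anchors SLC7A11 in the membrane and also serves other amino acid transporters. Its level was 372, 1023, 1048 and 793 TPM, with a mean of 809 ± 313 TPM (SD, n = 4). Replicate 1 was the lowest, and without it the mean was 955 ± 141 TPM (SD, n = 3). SLC3A2 exceeded SLC7A11 in every replicate, and their ranges did not come near each other. The ratio of counts per kilobase in replicates 1 to 4 was 61.7 (95% Clopper-Pearson interval 58.5 to 65.1), 54.1 (51.0 to 57.4), 121 (112 to 130) and 72.7 (67.7 to 78.2). The intervals cover counting error only and the spread between replicates was wider than any of them. On the log2(TPM + 1) scale, which understates differences of low genes, SLC3A2 was higher by 6.06 ± 0.50 (SD, n = 4). The difference was 5.27 with gene lengths from all annotated exons and 4.43 in counts without length.

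ACSL4 (chromosome X, 108884559 to 108976632, minus strand), whose product makes membranes easier to peroxidise, measured 11.7, 20.3, 11.4 and 27.4 TPM, with a mean of 17.7 ± 7.68 TPM (SD, n = 4). Replicates 1 and 3 were low and replicates 2 and 4 high, so its spread did not follow replicate 1. GPX4 exceeded ACSL4 in 4 of 4 replicates, with ratios of counts per kilobase of 15.7 (14.9 to 16.6), 13.6 (12.5 to 14.8), 29.9 (27.3 to 32.7) and 12.8 (11.9 to 13.7). The mean difference was 3.99 ± 0.54 log2 units (SD, n = 4). Because the ACSL4 row is 5351 bases long and that of GPX4 1403, the difference in counts without length was smaller, at 2.12 log2 units, with the same direction.

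TFRC (chromosome 3, 195776155 to 195809032, minus strand) brings in transferrin-bound iron. Its level was 291, 224, 164 and 154 TPM, with a mean of 208 ± 63.2 TPM (SD, n = 4), above 94.0% of detected genes. Replicate 1 was the highest here, and the highest and lowest replicates differed 1.88-fold.

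SLC40A1 (chromosome 2, 190425316 to 190445537, minus strand), the exporter of iron, had 10, 0, 0 and 3 counts in replicates 1 to 4. With 3 counts taken as the limit that a count of 0 allows, its level was at most 0.134 and 0.0995 TPM in replicates 2 and 3. The level was 0.123 TPM in replicate 1 and 0.12 TPM in replicate 4. No more can be said of ferroportin mRNA at this depth than that it was at or near the limit in 3 of 4 libraries and at a trace in the deepest of them.

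The mRNA of the importer thus far exceeded that of the exporter in every library. TFRC had 2374 times as many counts per kilobase as SLC40A1 in replicate 1 (95% Clopper-Pearson interval 1291 to 4950). With SLC40A1 set to the limit of 3 counts per library, the ratio was 1662 in replicate 2 and 1644 in replicate 3. The lower ends of the 95% Clopper-Pearson intervals in replicates 2 and 3 were 1351 and 1337. In replicate 4, where SLC40A1 had 3 counts, the ratio was 1287 with an interval of 440 to 6243. The difference was 7.58 ± 0.41 on the log2(TPM + 1) scale (SD, n = 4), and it depends on the pseudocount, with 10.4 at a pseudocount of 0.1. It was 6.80 in the unit as deposited and 8.73 in counts without length.

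FTH1 (chromosome 11, 61731757 to 61735132, minus strand), the ferritin chain that oxidises iron, was the highest of the 10 genes in every replicate. It reached 3028, 9546, 11786 and 11537 TPM, and the mean of 8974 ± 4089 TPM (SD, n = 4) was at rank 3 of all protein-coding genes. Replicates 2 to 4 lay together at ranks 4, 2 and 6, and replicate 1 lay below them at rank 41. Without replicate 1 the mean was 10956 ± 1228 TPM (SD, n = 3). The 21 FTH1 pseudogenes held 181 to 233 counts in all, at most 0.299% of the FTH1 count. How the authors counted reads that match several copies is not given in the sources used here, so that the split between FTH1 and its copies is uncertain.

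FTL (chromosome 19, 49468566 to 49470136, plus strand), the chain that helps the iron core to form, measured 1049, 1405, 2043 and 1303 TPM, with a mean of 1450 ± 423 TPM (SD, n = 4). Replicate 3 was the highest and replicate 1 the lowest. Its 10 pseudogenes held 4 to 19 counts. The 2 ferritin genes together took 0.408%, 1.10%, 1.38% and 1.28% of all protein-coding TPM in replicates 1 to 4.

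The mRNA of the heavy chain exceeded that of the light chain in 4 of 4 replicates. The ratio of counts per kilobase was 2.89 (2.84 to 2.93), 6.80 (6.64 to 6.95), 5.77 (5.67 to 5.86) and 8.86 (8.66 to 9.05) in replicates 1 to 4. The counting intervals of the 4 replicates did not overlap, so the ratio of the 2 mRNAs differed between libraries by more than counting error. The mean difference was 2.49 ± 0.69 log2 units (SD, n = 4) and 2.81 ± 0.31 without replicate 1. With gene lengths from all annotated exons it was 1.78 log2 units.

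The mRNAs of iron storage and uptake were further apart. FTH1 exceeded TFRC with ratios of 10.4, 42.7, 72.1 and 74.7 in replicates 1 to 4, and by 5.29 ± 1.33 log2 units (SD, n = 4). Replicate 1 had both the lowest FTH1 and the highest TFRC, and without it the difference was 5.93 ± 0.45 log2 units (SD, n = 3). Without length correction it was 3.19 log2 units in counts.

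IREB2 (chromosome 15, 78730518 to 78793798, plus strand), which encodes IRP2, measured 26.2, 33.0, 18.1 and 30.9 TPM, with a mean of 27.1 ± 6.59 TPM (SD, n = 4). Its coefficient of variation was 24.4%, and 29.4% without replicate 1. It lay close to the middle of all detected genes, above 53.4% of them. Here replicate 3 was the lowest and replicate 1 lay between the others.

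NCOA4 (chromosome 10, 51565108 to 51590734, plus strand), which delivers ferritin for breakdown, measured 375, 139, 174 and 135 TPM, with a mean of 206 ± 114 TPM (SD, n = 4). Replicates 2 to 4 lay within a narrow range and replicate 1 was well above them. Without replicate 1 the mean was 149 ± 21.5 TPM (SD, n = 3). TIMM23B lies over the whole gene on the same strand and held 131 to 468 counts, 1.26% to 5.54% of the NCOA4 count. How the counting assigned reads that fit both genes is not given in the sources used here, so their number is uncertain. NCOA4 exceeded IREB2 in 4 of 4 replicates, with ratios of 14.3 (13.9 to 14.7), 4.22 (3.97 to 4.47), 9.60 (9.02 to 10.2) and 4.36 (4.12 to 4.62), and by 2.78 ± 0.86 log2 units (SD, n = 4). In counts without length the difference was 1.98 log2 units.

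**Figure D2:**
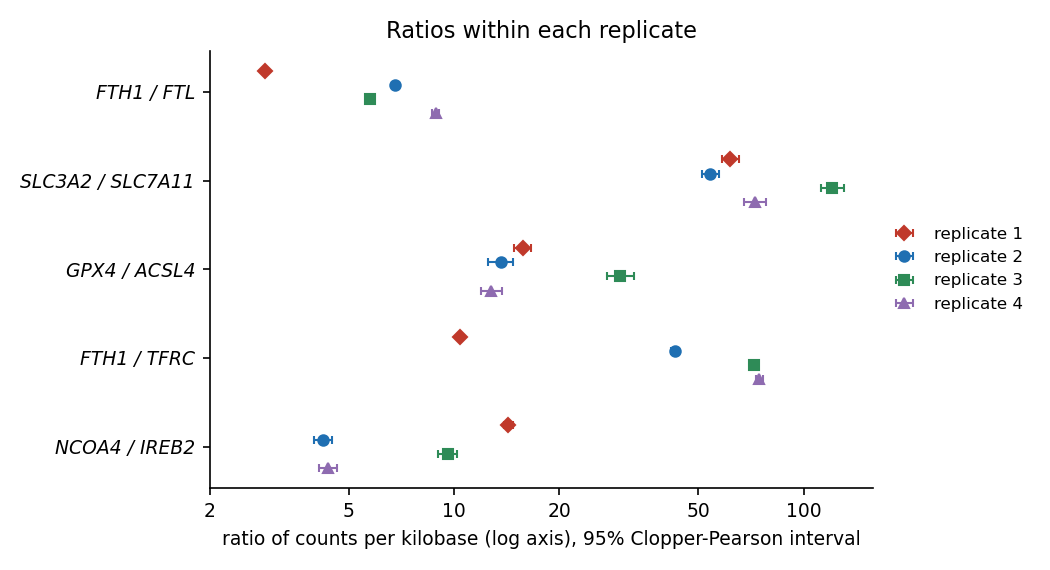
Ratios of counts per kilobase within each replicate on a log axis, with 95% Clopper-Pearson intervals that cover counting error only. The ratio FTH1 to FTL is lowest in replicate 1 (2.89) and highest in replicate 4 (8.86), and the ratio of SLC3A2 to SLC7A11 is between 54.1 and 121.

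The 6 differences (FTH1 and FTL, SLC3A2 and SLC7A11, GPX4 and ACSL4, TFRC and SLC40A1, FTH1 and TFRC, NCOA4 and IREB2) had the same sign in 4 of 4 replicates. Each gave p = 0.13 (2 of 16 sign patterns) in an exact permutation test, two-sided, that flips the sign within replicates, also after Benjamini-Hochberg adjustment over the 6. This is the smallest p that the test allows with 4 replicates, so it cannot reach 0.05 and the values above carry the comparison.

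Neighbours in the order were called apart where all 4 replicates had the same sign and the mean difference was larger than its SD. By this rule 7 of the 9 neighbouring pairs were apart and 2 were not. Leaving out replicate 1 changed 2 of these calls, and leaving out any other replicate changed none. GPX4 was above TFRC by 0.47 ± 0.84 log2 units (SD, n = 4), in 3 of 4 replicates, since in replicate 1 TFRC was the higher. Without replicate 1 GPX4 and TFRC were apart, with 0.84 ± 0.47 log2 units (SD, n = 3). TFRC was above NCOA4 by 0.11 ± 0.45 log2 units (SD, n = 4), in 2 of 4 replicates. ACSL4 and SLC7A11 were called apart with a difference of 0.64 ± 0.52 log2 units (SD, n = 4) and a ratio of 1.07 (0.979 to 1.18) in replicate 2, where counting error covers equal levels. Without replicate 1 they were no longer apart, with 0.57 ± 0.61 log2 units (SD, n = 3).

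The upper and lower ends of the order were the same in every library. FTH1 and FTL held places 1 and 2, and IREB2, ACSL4, SLC7A11 and SLC40A1 held places 7 to 10 in all 4 replicates. The middle changed, as NCOA4 was at place 3 in replicate 1 and at places 6, 5 and 6 in replicates 2 to 4. SLC3A2 was at place 4 in replicate 1 and at place 3 in the others. Without replicate 2, and likewise without replicate 4, NCOA4 and TFRC exchanged places in the mean order. With gene lengths from all annotated exons NCOA4 rose to place 4, above GPX4 and TFRC.

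Replicate 1 differed from the others in its RNA classes, and the 9 detected genes were therefore compared between it and the rest. Of the 9 detected genes, replicate 1 was below all other replicates for 5 (GPX4, SLC7A11, SLC3A2, FTH1 and FTL), beside 37.4% of all detected protein-coding genes. It was above all others for 2 (TFRC and NCOA4), beside 40.2% of detected genes. Both counts are small and read no further than these background shares. With TPM over all genes of the library, where the median difference of detected genes in replicate 1 was -1.27 log2 units, the values of TFRC and NCOA4 turned to -0.82 and -0.19, which is 0.46 and 1.08 above that median. FTH1 alone had a replicate far from the rest by Dixon's ratio, low in replicate 1, as did 4.57% of detected genes. None of the 9 stood apart on the high side in replicate 1, beside 2.71% of detected genes.

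The size of these differences varied by gene. Replicate 1 minus the mean of replicates 2 to 4 was -1.85 log2 units for FTH1, -1.35 for SLC3A2, -0.91 for SLC7A11, -0.80 for GPX4, -0.62 for ACSL4 and -0.56 for FTL. It was -0.01 for IREB2, 0.71 for TFRC and 1.33 for NCOA4, while the median of all detected genes was 0.03.

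GC content moved with the difference between replicate 1 and the others over all genes, so each gene was set beside genes of like GC content. In 20 bins of GC content of the longest coding transcript, the median difference was -0.88 in the bin of GPX4 (65.2% GC) and 0.95 in the bin of SLC7A11 (35.4% GC). GPX4, FTL and TFRC lay close to the medians of their bins, which were -0.88, -0.57 and 0.62. SLC7A11, ACSL4 and IREB2, all of low GC content, lay below theirs, which were 0.95, 0.88 and 0.88. FTH1 and SLC3A2 lay below theirs too (-0.07 and -0.61), and NCOA4 lay above its own (0.61). The part of GC content in these differences was not tested.

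**Figure D3:**
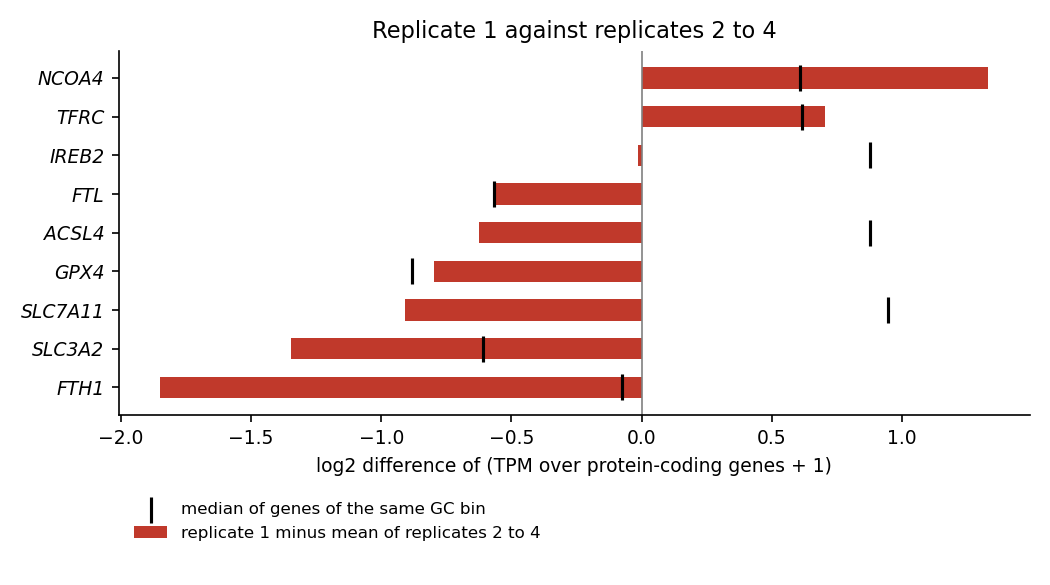
Replicate 1 minus the mean of replicates 2 to 4 in log2(TPM + 1) over protein-coding genes (bars), with the median of detected genes in the same of 20 GC bins (black marks). The bars reach lowest for FTH1 (-1.85) and SLC3A2 (-1.35) and highest for NCOA4 (1.33); on TPM over all genes the bars of TFRC and NCOA4 turn to -0.82 and -0.19.

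The other genes of the same pathways give the setting of these levels. They were taken from 5 lists of 77 genes in all, and the detected share of each list is to be read against the 63.3% of all protein-coding genes. The median level was 7.21 TPM over all protein-coding genes and 24.5 TPM over the detected ones. The number of detected genes in each of the 5 lists was the same without replicate 1.

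All 19 further genes of ferroptosis defence were detected, with a median of 33.5 TPM. The highest were SCD, the desaturase that makes monounsaturated fatty acids, at 866 ± 479 TPM, TXNRD1, the cytosolic thioredoxin reductase, at 126 ± 44.2 TPM, and ACSL3, which activates monounsaturated fatty acids for membranes, at 118 ± 69.4 TPM (SD, n = 4 each). GPX4 at 287 TPM was above all of these but SCD in the mean.

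Of 17 genes of lipid peroxidation, 14 were detected (82.4%), with a median of 22.2 TPM over the 17. The highest were the mitochondrial channel genes VDAC2 at 289 ± 51.5 TPM and VDAC3 at 181 ± 59.5 TPM, and the polyamine acetyltransferase SAT1 at 168 ± 81.2 TPM (SD, n = 4 each). The lipoxygenase genes ALOX12B, ALOX15 and ALOX15B were not detected. ACSL4, at 17.7 TPM, was below the median of this list.

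Of 20 further genes of iron transport, 12 were detected (60%, close to the 63.3% of all protein-coding genes), with a median of 6.63 TPM over the 20. PCBP1, a chaperone that hands iron to ferritin, measured 55.4, 638, 552 and 494 TPM in replicates 1 to 4. Its relative PCBP2 was at 221 ± 90.0 TPM and the haem oxygenase HMOX2 at 56.5 ± 8.57 TPM (SD, n = 4 each). Replicate 1 was the lowest for 6 of the 12 detected genes, PCBP1 among them, beside 37.4% of all detected protein-coding genes. It was the highest for 3 of the 12, beside 40.2% of all detected genes. Not detected were transferrin (TF), the second receptor TFR2, the ferroxidases HEPH and CP, and HAMP, HJV, BMP6 and TMPRSS6 of the hepcidin axis that the liver runs. HAMP, the hormone that removes ferroportin from the membrane, and HJV were at 0 counts in every library. SLC40A1 and the ferroxidase genes HEPH and CP, which are known to work with it in iron export, were thus all below 1 TPM.

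Of 4 genes of iron sensing and storage beside IREB2, FTH1 and FTL, 3 were detected (75%). HERC2, a ubiquitin ligase that acts on NCOA4, was at 28.2 ± 10.9 TPM, FBXL5, which brings about the breakdown of the IRP proteins when iron is high, at 19.7 ± 10.1 TPM, and ACO1 at 9.22 ± 5.76 TPM (SD, n = 4 each). IREB2 at 27.1 TPM was above ACO1 in the mean. The mitochondrial ferritin FTMT was at 0 counts in every library.

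Of 17 genes of mitochondrial iron and iron-sulphur clusters, 16 were detected (94.1%), with a median of 31.3 TPM. The highest were the glutaredoxin GLRX5 at 112 ± 37.8 TPM, the iron importer SLC25A28 at 51.0 ± 13.2 TPM and the ferredoxin FDX2 at 49.2 ± 15.4 TPM (SD, n = 4 each). ALAS2, the haem synthesis enzyme of red cell precursors and a holder of the loop letters given above, was not detected, with 0, 0.916, 0.104 and 0.252 TPM in replicates 1 to 4.

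**Figure D4:**
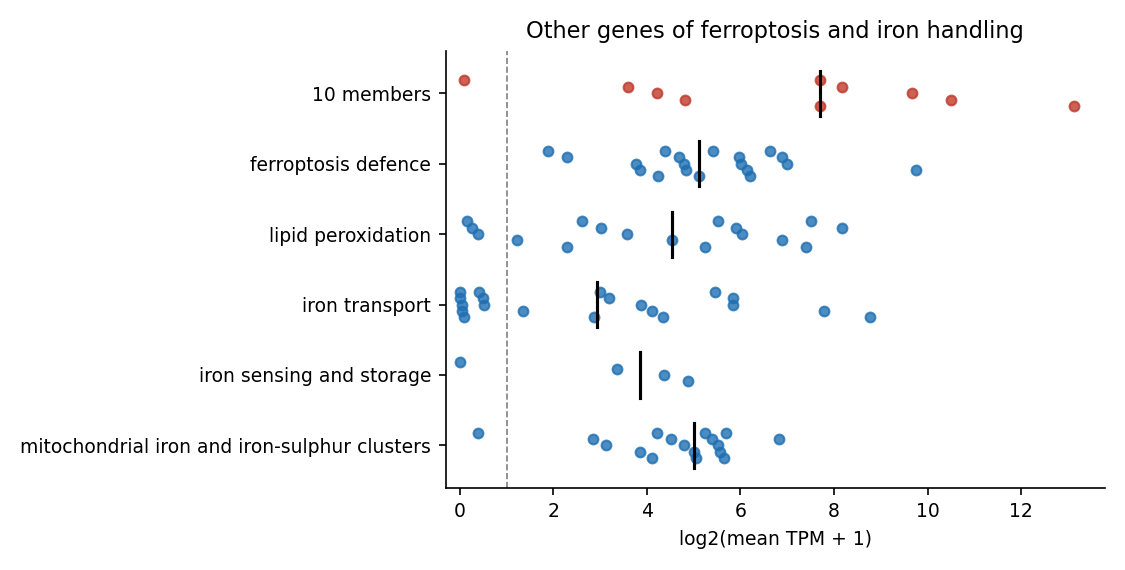
Mean level of each gene as log2(mean TPM + 1), 1 point per gene, for the 10 genes and the 5 other lists; black lines are medians and the dashed line is 1 TPM. All 19 genes of ferroptosis defence lie right of the dashed line, beside 12 of 20 genes of iron transport, and SLC40A1 is the only 1 of the 10 genes left of it.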

How the data were processed

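Total RNA of 4 HaCaT replicates was sequenced on Illumina libraries. The authors deposited raw counts per gene with a length and position, beside RPKM for replicates 1 and 2 and TPM for replicates 3 and 4. The deposited RPKM and TPM matched those recomputed from the counts and lengths to within a relative difference of 6.66e-07. The submitters' processing notes name HISAT2, HISAT, TopHat2, Bowtie2 and hg19, with no role given. The counting program, annotation and strand setting are not given in the sources used here. From these counts and lengths, TPM over protein-coding genes was computed in each replicate. The total counts, between 17056035 and 73082279, set the precision, and a count up to 3 was taken as the limit. A gene with a mean above 1 TPM was called detected.

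Since there was 1 condition, no differential test was run. The difference between genes in log2(TPM + 1) was taken in each replicate and tested by exact permutation of its signs (two-sided), and ratios of counts have 95% Clopper-Pearson intervals. No molecular identifiers marked the reads, which are therefore not independent molecules, so these and the limits at 3 counts cover counting error only. The 10 genes, the lists and the tests were chosen with earlier results of these data known. All 10 genes are named, and from each other list the 3 genes of highest mean and those not detected, besides overlapping genes from 1% of a gene's count. Iron-responsive elements and GC content came from GENCODE release 29 on GRCh38, and gene positions from the files (hg19), without conversion. GC content was found for 97.7% of detected genes. The alternatives were pseudocounts, scalings, gene lengths, detection limits, pseudogene reads and leaving out each replicate, and the list counts without replicate 1 were chosen after seeing the data. The erythroid marker list as a whole is not reported here. The calculations were tested on simulated data. The work used SciPy 1.17.1, NumPy 2.4.6, matplotlib 3.10.9, pandas 2.3.3 and Python 3.11.15.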

Additional observations from a re-analysis of the deposited data

Results flagged for a closer look

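FTH1 in replicate 1 was at 3028 TPM, far below the 9546 to 11786 TPM of the other replicates, by Dixon's ratio on the log2(TPM + 1) scale at the 95% limit. Of 16 sets of 4 values looked at (levels and differences), 1 had such a replicate. A nominal rate of 1 in 20 gives about 0.8, but the sets share genes and are not independent. Over all detected protein-coding genes, replicate 1 alone was so called on the low side for 4.57% and on the high side for 2.71%. With upper quartile or median-of-ratios scaling, the value of replicate 1 was 2984 and 3024, and no gene of the group passed the limit. The share of all detected genes passing it was not computed with these scalings.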

How the results depend on the processing

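All 67 alternatives of the 6 differences kept the direction, while gene length and, for SLC40A1, the pseudocount moved their sizes as given above. Where all 4 replicates share a sign, leaving out a replicate, rescaling a whole library or changing the pseudocount cannot change the direction. Only gene lengths, counts without length and pseudogene reads could have changed it. Leaving out each replicate in turn gave 2.27 to 2.81 for FTH1 minus FTL, 5.82 to 6.18 for SLC3A2 minus SLC7A11, 3.73 to 4.12 for GPX4 minus ACSL4, 7.43 to 7.73 for TFRC minus SLC40A1, 4.98 to 5.93 for FTH1 minus TFRC and 2.44 to 3.02 for NCOA4 minus IREB2 in log2 units. With 4 replicates or fewer the sign-flip test cannot reach 0.05, so these ranges show only the size. TFRC minus SLC40A1 was not computed with a pseudocount of 0, since SLC40A1 is at 0 in 2 replicates. The number of genes with replicate 1 far from the rest was 1, and became 3 with TPM over all genes (GPX4, SLC3A2 and FTH1). It became 0 with upper quartile scaling and 0 with median-of-ratios scaling. The cause was not tested. With TPM over all genes the median difference of all detected genes between replicate 1 and the others was -1.27 log2 units. The share of all detected genes far from the rest was not computed for these scalings, so the counts are not read as particular to the group. Of 82 alternatives for the level of a gene, 78 moved it by less than 1 SD. Those that left out 1 of the 4 replicates could not have moved a mean by 1 SD, whatever the values. Gene lengths from all annotated exons moved SLC7A11 to 17.5, FTL to 2290 and NCOA4 to 331 TPM, and TPM over all genes moved TFRC to 144 TPM. The latter also gave NCOA4 129 ± 15.8 TPM, which is within 1 SD of its mean of 206 ± 114 TPM. No paired analysis was possible because there is 1 group, so that replicate numbers pair no groups. The differences between genes were taken within each library. Depth limits SLC40A1, and 4 replicates limit the spread of all genes.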
